A study of Mus musculus with 18 samples.

Results

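The genes described here are 10 cytosolic sulfotransferases: Sult1a1, Sult1b1, Sult1c2, Sult1d1, Sult2a1, Sult2a5, Sult2a8, Sult2b1, Sult3a1 and Sult5a1. They were chosen by gene symbol, and 9 of the 10 were found among the 31165 genes of the deposited table (Sult3a1 was not analysed here). The table holds 18 cytosolic sulfotransferase genes in all, so 9 of them are not in this set. Differences between groups were tested for 14104 genes whose mean reached 10 in these libraries, which took in 8 of the 9 genes and left out Sult2b1.

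The samples were livers of newborn C57BL/6J mice that had been injected intraperitoneally, on postnatal days 1 and 3, with a miR-497a-5p mimic or with a scrambled control mimic. Livers were taken at P5, P7 and P14, with 3 libraries for mimic and 3 for scrambled at each day, 18 in all. No uninjected liver was among them. The protocol gives 10 and 100 mg per kg as its doses, and which of them a given library had is not stated in its label. The labels also do not say which pups shared a litter, and the sample titles do not give sex. The mean log2 level of Y-linked genes, used below as a covariate, varied within groups. At P5 it ran from 0 to 8.15 in mimic and from 2.02 to 8.23 in scrambled livers. P7 values were 8.46, 8.33 and 0.396 in mimic and 1.396, 8.43 and 4.19 in scrambled livers. P14 values were 8.26, 8.84 and 0.896 in mimic and 8.298, 0.25 and 0.396 in scrambled livers. The part of sex in the results was not tested beyond fits with this covariate. The comparisons address what the mimic changed at each day and how the same genes differ with age.

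Sulfotransferases transfer a sulfonate group from the donor PAPS to a hydroxyl or amino group, which makes steroids, bile acids, thyroid hormones, catecholamines, phenols and drugs more soluble in water and usually less active. The cytosolic enzymes are written SULT and differ from the membrane-bound sulfotransferases of the Golgi, which act on glycans and on tyrosines of proteins. In liver, class 1 enzymes mainly take phenols and class 2 enzymes mainly take hydroxysteroids and bile acids, and mice carry a run of Sult2a genes where humans have a single SULT2A1.

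The sequence of the microRNA is shown because pairing of its seed with messenger RNA is how such a molecule acts. The mature mouse sequence in RefSeq (GRCm38.p6, chr11:70234730-70234751, plus strand) is given with the seed, bases 2 to 8, in capitals.
mmu-miR-497a-5p: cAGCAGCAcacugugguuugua
The DNA letters that pair with this seed are TGCTGCT. The longest annotated 3′ UTR of each of the 18 sulfotransferase genes (GENCODE M21) held 0 copies of this 7-mer. A 6-base match was found once in Sult1b1, once in Sult5a1 and 3 times in Sult4a1.

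Upstream windows of 250 bases are shown for 3 of the genes that were higher at P14 than at P5. They come from RefSeq (GRCm38.p6) and end at the base before the annotated start. Capitals mark 3 short motifs, searched on both strands: GTTAAT, letters shared by many binding sites of hepatocyte nuclear factor 1; AGGTCA, the half-site of many nuclear receptors; and TATAAA.
Sult2a5, chr7:13623717-13623966, plus strand: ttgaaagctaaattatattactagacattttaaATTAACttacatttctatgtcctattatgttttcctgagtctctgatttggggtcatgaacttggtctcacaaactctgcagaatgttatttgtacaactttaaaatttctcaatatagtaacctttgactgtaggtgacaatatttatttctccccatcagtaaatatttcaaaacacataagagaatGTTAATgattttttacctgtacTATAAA
Sult2a8, the more downstream of its 2 listed starts, chr7:14438552-14438801, minus strand: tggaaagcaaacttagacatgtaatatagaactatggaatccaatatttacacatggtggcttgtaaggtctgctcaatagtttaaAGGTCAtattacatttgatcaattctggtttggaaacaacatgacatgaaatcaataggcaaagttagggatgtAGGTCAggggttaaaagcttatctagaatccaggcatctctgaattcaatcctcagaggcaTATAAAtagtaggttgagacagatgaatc
Sult1d1, chr5:87569007-87569256, minus strand: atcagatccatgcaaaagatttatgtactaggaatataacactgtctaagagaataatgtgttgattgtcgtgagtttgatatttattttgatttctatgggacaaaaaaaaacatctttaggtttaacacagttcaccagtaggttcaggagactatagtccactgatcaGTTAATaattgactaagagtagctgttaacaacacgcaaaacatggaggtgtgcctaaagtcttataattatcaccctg
The Sult2a5 window held GTTAAT, in 1 or the other orientation, at -217 and -28 and TATAAA at -6, counted back from the start. The Sult2a8 window held AGGTCA at -164 and -90 and TATAAA at -29. The window before the other Sult2a8 start (chr7:14446588-14446837), nearer the annotated 5′ end of the gene, held no AGGTCA or GTTAAT and TATAAA at -223 only. The Sult1d1 window held GTTAAT at -79. Windows searched for other genes that were higher at P14 held 1 match or none and are not shown, although the Sult1d1 window also held only 1. That of Sult1c2 held none of the 3 motifs, and that of Sult1a1 held GTTAAT at -232 only. For Sult1b1, 1 window held AGGTCA at -123 only and another held none. No Sult2a1 window was searched. Of 32851 such windows in RefSeq, 6.43% held GTTAAT, 14.0% held AGGTCA and 12.4% held TATAAA, so these motifs are common. A match is a run of letters and was not tested for binding.

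Values are scaled counts, whole numbers that the authors had put on a common scale, as judged from their near-equal sums. They summed to between 3954405 and 4248257 per library. Markers of liver were high in every library: the 9 hepatocyte genes found of 10 looked for summed to 12100 to 16941 at P5, 13135 to 16516 at P7 and 13745 to 15796 at P14. Of 10 red cell precursor genes, 7 passed as lower at P14 than at P5 (limma, Benjamini-Hochberg adjusted p under 0.05). The 10 genes summed to 2288 to 3819 at P14, against 7460 to 10066 at P5. By the same test, 4 of 7 stellate cell and fibroblast genes passed as higher and 4 of 6 Kupffer cell genes as lower. Of all genes tested, 48.8% passed in that comparison. Kidney tubule genes summed to 102 in P7 scrambled replicate 3 and to 10 or less elsewhere. Skeletal muscle genes summed to 1452, 20 and 366 in P7 scrambled replicates 1, 2 and 3, and to 17 or less in each library of the other groups.

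Per length of transcript, used here to set genes beside each other, Sult2a1 and Sult1a1 were the highest of the family at P14. Sult2a1 had 638 ± 39.0 and Sult1a1 608 ± 30.8 scaled counts per kb of their longest transcript (SD, n = 6 livers), and their ranges overlapped. Sult1d1 at 424, Sult2a8 at 413 and Sult2a5 at 395 per kb followed, each overlapping the next. The place of Sult2a8 depends on the length used, which is 2143 bases for its longest transcript and 3284 for all its exons together. Over the 18 livers it had 313 per kb by the first and 205 by the second, against 334 and 329 for Sult1d1. Below them, with ranges apart, stood Sult1c2 at 183, Sult1b1 at 111, Sult5a1 at 8.80 and Sult2b1 at 0.897 per kb.

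The order at P5 was different. Sult1a1 stood first with 523 per kb, apart from Sult1d1 at 280, Sult2a1 at 243 and Sult2a8 at 228, each overlapping the next. Sult1c2 had 149, Sult1b1 74.7, Sult2a5 22.3, Sult5a1 13.9 and Sult2b1 2.87 per kb, and among these only Sult2a5 and Sult5a1 overlapped. At P7 Sult1a1 was still first, at 506 per kb, and Sult2a5 had reached 86.4 per kb, within the range of Sult1b1 at 83.1.

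**Figure D1:**
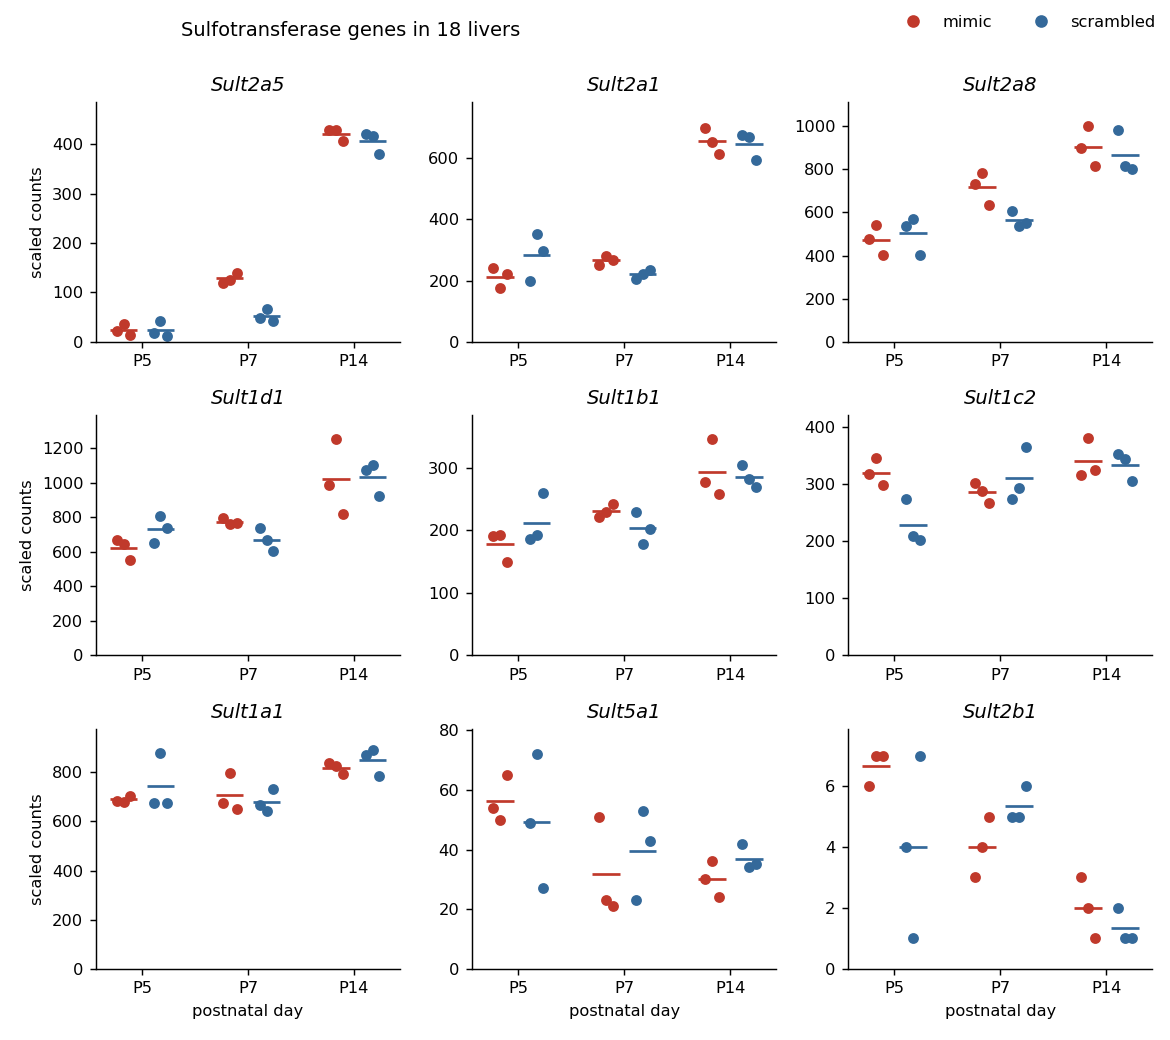
Scaled counts (y axis, from 0) of the 9 sulfotransferase genes in each of 18 livers, by postnatal day (x axis), with mimic in red to the left of scrambled in blue; points are livers and bars are means of 3. Sult2a5 climbs at each day and the P14 livers of Sult2a1 stand above its own earlier ones, while Sult2b1 stays at 7 or below.

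The differences that passed the test were between ages. At P14 against P5, 7 of the 8 tested genes rose and 0 fell (limma on log2(value + 1), Benjamini-Hochberg adjusted p under 0.05), where 48.8% of all genes tested passed and 23.9% passed as higher. The median log2 difference was 0.59 for the 8 genes and 0.01 for all genes tested. The 4 genes Sult2a5, Sult2a1, Sult2a8 and Sult1d1 had all 6 P14 livers above all 6 P5 livers, as did 10.9% of all genes. In tissue RNA, more cells that make a transcript and more transcript per cell cannot be told apart, and red cell precursor transcripts fell over the same days. The part of that fall in these differences was not tested beyond a fit with the mean log2 level of the red cell genes as a covariate, which follows age closely. In that fit 0 of the 8 genes and 24 of all genes passed. The log2 differences were then 3.63 for Sult2a5, 1.87 for Sult2a1, 0.50 for Sult1a1, 0.49 for Sult1d1, 0.43 for Sult2a8, 0.31 for Sult1b1 and 0.27 for Sult1c2, against 4.25, 1.43, 0.22, 0.60, 0.86, 0.58 and 0.32 without the covariate.

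The hydroxysteroid enzymes differed most. Sult2a5 lies on chromosome 7 (13623967 to 13670807, plus strand, mm10) at the low-coordinate end of the Sult2a run. It had 21, 36 and 13 scaled counts in mimic and 17, 42 and 11 in scrambled livers at P5. P7 values were 119, 126 and 140 in mimic and 48, 66 and 43 in scrambled livers, and at P14 428, 429 and 407 in mimic and 421, 416 and 380 in scrambled livers. The 3 days did not overlap: every P7 liver exceeded every P5 liver, and every P14 liver exceeded every P7 liver.

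The log2 difference of Sult2a5 between P14 and P5 reached 4.25 (SE 0.25, limma adjusted p 1.01e-10), a fold of 19.0 on the log2(value + 1) scale. The P7 step over P5 was 1.92 (SE 0.25, adjusted p 0.000821) and the P14 step over P7 2.33 (SE 0.25, adjusted p 5.16e-07). It rose within the mimic livers alone, by 4.23 (adjusted p 4.48e-08), and within the scrambled livers alone, by 4.27 (adjusted p 2.88e-08), with the same limma fit. Its share of all Sult2a scaled counts averaged 2.20% ± 0.97 at P5, 6.94% ± 2.57 at P7 and 16.2% ± 0.594 at P14 (SD, n = 6 each).

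Part of the Sult2a5 transcript cannot be told from its neighbours by short reads. Of its 50-base stretches, 34.5% also occur in another gene, most often Sult2a2. The processed pseudogene Zbed4-ps1 lies inside Sult2a5 on the same strand and had 186, 182 and 140 scaled counts in mimic and 131, 152 and 153 in scrambled livers at P14, against 3 or fewer in each liver at P5. Its log2 difference at P14 against P5 was 6.20 (limma adjusted p 1.14e-11). No source used here states how reads shared by several genes were counted.

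Sult2a1, the enzyme that sulfonates dehydroepiandrosterone and bile acids, lies in the same run (chromosome 7, 13796246 to 13837409, minus strand). It had 242, 176 and 220 scaled counts in mimic and 200, 352 and 296 in scrambled livers at P5, and 250, 280 and 267 in mimic and 205, 222 and 233 in scrambled livers at P7. At P14 it had 699, 653 and 613 in mimic and 676, 668 and 594 in scrambled livers. P5 and P7 livers overlapped, and all P14 livers stood above both. Among mimic livers alone, every P7 value lay above every P5 value.

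The P14 against P7 difference of Sult2a1 was 1.42 on the log2 scale (SE 0.11, limma adjusted p 7.96e-09), a fold of 2.68, while P7 against P5 gave 0.00 with a 95% interval from -0.22 to 0.23 (adjusted p 0.984). That step was 0.33 within mimic livers (unadjusted p 0.0449, adjusted p 0.155) and -0.32 within scrambled livers (unadjusted p 0.0491, adjusted p 0.215), in opposite directions. P14 against P5 gave 1.43 (SE 0.11, adjusted p 4.00e-09). Of its 50-base stretches, 33.2% are shared with other genes, most with Sult2a2, and Sult2a2 was also the gene whose pattern was most like it over the 18 libraries (Pearson r 0.970, a description).

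Sult2a8, a bile acid sulfotransferase of mouse liver (chromosome 7, 14410686 to 14446586, minus strand), shares no 50-base stretch with another gene. It had 476, 540 and 405 scaled counts in mimic and 537, 568 and 403 in scrambled livers at P5. P7 livers had 732, 784 and 636 in mimic and 607, 537 and 552 in scrambled livers, and at P14 897, 1001 and 817 in mimic and 982, 814 and 801 in scrambled livers. It increased in both steps, by 0.39 at P7 over P5 (SE 0.09, limma adjusted p 0.00806) and by 0.47 at P14 over P7 (SE 0.09, adjusted p 0.000482), and P14 livers did not overlap the earlier ones. P14 against P5 gave 0.86 (SE 0.09, adjusted p 3.80e-07), a fold of 1.82.

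The Sult2a genes outside the set that could be tested were also higher at P14. Of the 9 further cytosolic genes, 3 reached the mean needed for a test, and all 3 rose at P14 against P5: Sult2a6 by 1.61 (limma adjusted p 9.74e-07), Sult2a2 by 1.06 (adjusted p 9.27e-08) and Sult2a3 by 0.83 (adjusted p 0.0247). The share of all SULT scaled counts held by Sult2a genes averaged 34.5% ± 1.71 at P5, 38.7% ± 2.80 at P7 and 50.3% ± 1.47 at P14 (SD, n = 6 each). Of Sult2a2 stretches 62.1% are shared with other genes, so its value depends on how shared reads were counted. The other 6 genes were near 0: Sult2a4 had 13 scaled counts at most, Sult1c1 at most 6 with 17 of 18 libraries at 0, and Sult1e1, the estrogen sulfotransferase, at most 4. Sult2a7 and Sult6b1 had 2 at most. Sult4a1 had 42 in P5 scrambled replicate 3 and 10 or fewer in every other library.

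**Figure D2:**
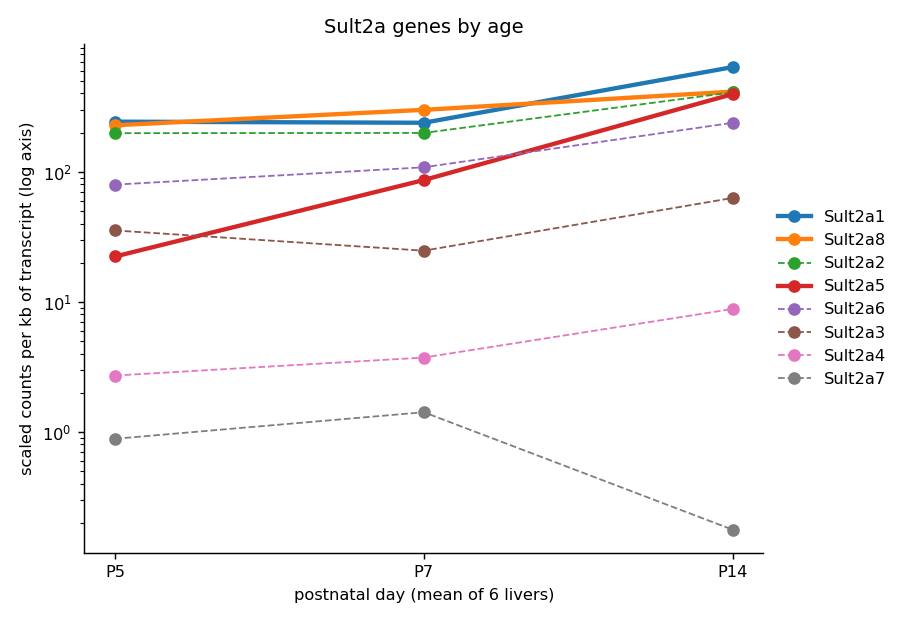
Mean scaled counts per kb of longest transcript (log axis) of 8 Sult2a genes at P5, P7 and P14 (x axis, means of 6 livers); thick lines are Sult2a1, Sult2a5 and Sult2a8 and dashed lines are other genes of the run. Sult2a5 goes through 22.3, 86.4 and 395 per kb, while the means of Sult2a1 and Sult2a2 are about level between P5 and P7.

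The class 1 enzymes had smaller differences. Sult1d1, which in mice sulfonates dopamine and other small phenols and has no working human copy (chromosome 5, 87554645 to 87569027, minus strand), had 667, 643 and 554 scaled counts in mimic and 650, 807 and 740 in scrambled livers at P5. The P7 values were 793, 762 and 765 in mimic and 736, 667 and 606 in scrambled livers, and at P14 988, 1252 and 817 in mimic and 1076, 1105 and 922 in scrambled livers. All P14 livers stood above all earlier ones, though the lowest P14 mimic liver came close. The log2 difference was 0.60 at P14 against P5 (SE 0.09, limma adjusted p 2.32e-05), 0.50 at P14 against P7 (adjusted p 0.000208) and 0.10 at P7 against P5 (95% interval -0.09 to 0.29, adjusted p 0.448).

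Sult1b1, known for sulfonating thyroid hormones (chromosome 5, 87513339 to 87538195, minus strand), had 191, 193 and 149 scaled counts in mimic and 186, 192 and 260 in scrambled livers at P5. At P7 it had 222, 229 and 242 in mimic and 229, 179 and 202 in scrambled livers, and at P14 278, 346 and 259 in mimic and 304, 283 and 270 in scrambled livers. The highest P5 liver, scrambled replicate 3, had 260 scaled counts against 259 in the lowest P14 liver, and P14 lay above P7. The log2 difference was 0.58 at P14 against P5 (SE 0.10, limma adjusted p 0.000105), 0.42 at P14 against P7 (SE 0.10, adjusted p 0.00261) and 0.17 at P7 against P5 (SE 0.10, adjusted p 0.230). The P14 against P7 call was lost with scaling to hepatocyte genes (0.27, adjusted p 0.153). It was also lost without P7 scrambled replicates 2 and 3 (0.33, adjusted p 0.0524), a fit in which replicate 1, with the highest muscle sum, is the only P7 scrambled library.

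Sult1a1, the main phenol sulfotransferase of liver, lies on the minus strand of chromosome 7 (126672865 to 126676432). It had 685, 680 and 704 scaled counts in mimic and 674, 880 and 674 in scrambled livers at P5. P7 livers had 675, 795 and 650 in mimic and 666, 642 and 733 in scrambled livers, and at P14 836, 826 and 792 in mimic and 870, 892 and 785 in scrambled livers. A single P5 liver, scrambled replicate 2, was as high as the P14 livers, and 1 P7 liver, mimic replicate 2, reached their lower edge. The log2 difference was 0.22 at P14 against P5 (SE 0.07, limma adjusted p 0.0149), 0.27 at P14 against P7 (SE 0.07, adjusted p 0.00508) and -0.04 at P7 against P5 (adjusted p 0.676).

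Genes of high density varied little with age in these data. Sult1a1 ranked 147 of 13969 by scaled counts per kb, and Alb, the highest, had 1026 per kb. Among 173 genes between 500 and 800 per kb the middle 80% of the log2 difference at P14 against P5 ran from -0.09 to 0.29. Among 9348 genes under 100 per kb it ran from -1.11 to 0.62. Among 24 genes at 800 per kb or more, with the hepatocyte markers Alb, Ambp, Apoa2 and Apoa1 among them, it ran from -0.07 to 0.05. The part of this narrowing in the small differences of Sult1a1 was not tested. Nor was its part in the values of Sult2a1, at 638 per kb at P14, or in the hepatocyte sums and the scaling to them. The Sult1a1 call at P14 against P5 was lost with quantile normalization (0.15, limma adjusted p 0.0554), and the Sult1a1 call at P14 against P7 with hepatocyte scaling (0.12, adjusted p 0.101).

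**Figure D3:**
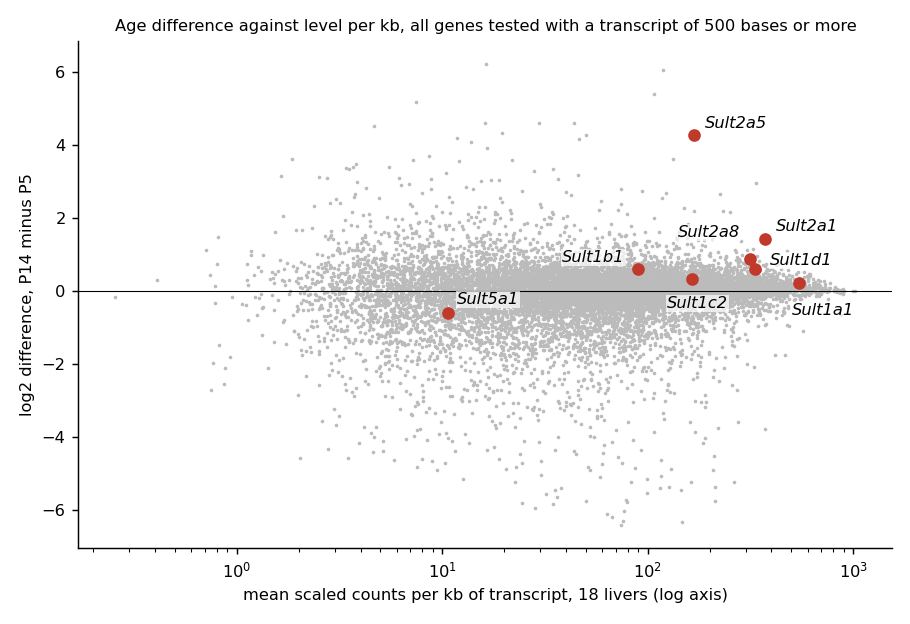
Log2 difference at P14 minus P5 (y axis, means of 6 livers each) against mean scaled counts per kb over 18 livers (x axis, log axis) for 13969 genes in grey and the 8 tested sulfotransferases in red. The cloud narrows to the right, where Sult1a1 lies, and Sult2a5 stands high above it.

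Sult1c2, a class 1 enzyme (chromosome 17, 53829637 to 53846339, minus strand), had 318, 346 and 298 scaled counts in mimic and 275, 210 and 202 in scrambled livers at P5. The P7 values were 302, 288 and 268 in mimic and 274, 293 and 365 in scrambled livers, and at P14 317, 381 and 325 in mimic and 353, 344 and 306 in scrambled livers. The P5 scrambled livers were the low ones, and the P5 mimic livers reached the P14 range. The log2 difference at P14 against P5 was 0.32 (SE 0.09, limma adjusted p 0.00635). In the same fit it was 0.09 in mimic livers alone (adjusted p 0.645) and 0.56 in scrambled livers alone (adjusted p 0.00216), and an F test of whether the mimic effect differed between days did not pass (adjusted p 0.584). Neither step passed by itself, with 0.14 at P7 over P5 (SE 0.09, adjusted p 0.257) and 0.18 at P14 over P7 (SE 0.09, adjusted p 0.1). The P14 over P7 step passed without P7 scrambled replicate 3 (0.24, limma adjusted p 0.0317), with quantile normalization (adjusted p 0.0420) and with a transcript length covariate (adjusted p 0.0422). The P14 against P5 call was lost with hepatocyte scaling (0.26, adjusted p 0.135).

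Sult5a1 was low and did not pass. It lies on chromosome 8 (123140192 to 123158270, minus strand) and had 54, 50 and 65 scaled counts in mimic and 49, 72 and 27 in scrambled livers at P5. At P7 it had 51, 23 and 21 in mimic and 23, 53 and 43 in scrambled livers, and at P14 30, 36 and 24 in mimic and 42, 34 and 35 in scrambled livers. The days overlapped, with log2 differences of -0.60 at P14 against P5 (SE 0.26, limma adjusted p 0.0606), -0.60 at P7 against P5 (adjusted p 0.0877) and -0.00 at P14 against P7 (adjusted p 0.996). Without P5 scrambled replicate 3, the lowest P5 liver, the first was -0.79 and passed (adjusted p 0.0137). It also passed without P7 mimic replicate 1 (adjusted p 0.0392) and without P7 scrambled replicate 1 (adjusted p 0.0440), where the difference itself stayed at -0.60. It passed too with hepatocyte scaling (-0.66, limma adjusted p 0.0470), with a Y-linked or a length covariate (adjusted p 0.0457 and 0.0463) and with only the P14 and P5 libraries (adjusted p 0.0322). The step at P7 over P5 passed without P5 scrambled replicate 3 (-0.78, adjusted p 0.0368), without P7 mimic replicate 1 (-0.80, adjusted p 0.0404) and with the Y-linked covariate (adjusted p 0.0497).

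Sult2b1, the cholesterol sulfotransferase best known from skin, was close to absent. It lies on chromosome 7 (45729983 to 45784669, minus strand) and had 6, 7 and 7 scaled counts in mimic and 4, 1 and 7 in scrambled livers at P5. At P7 it had 3, 4 and 5 in mimic and 5, 5 and 6 in scrambled livers, and at P14 3, 2 and 1 in mimic and 2, 1 and 1 in scrambled livers. With the filter on low values removed, limma gave a log2 difference of -1.16 at P14 against P5 (SE 0.37, adjusted p 0.0241) and -1.12 at P14 against P7 (adjusted p 0.0305). The median of all genes moved by -0.26 in that unfiltered P14 against P7 comparison. An exact permutation test within mimic and within scrambled gave two-sided p of 0.02 and 0.01, both 0.03 after adjustment over the 3 day pairs, and 0.005 is the smallest it can give. At such levels 1 or 2 scaled counts decide the value.

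**Figure D4:**
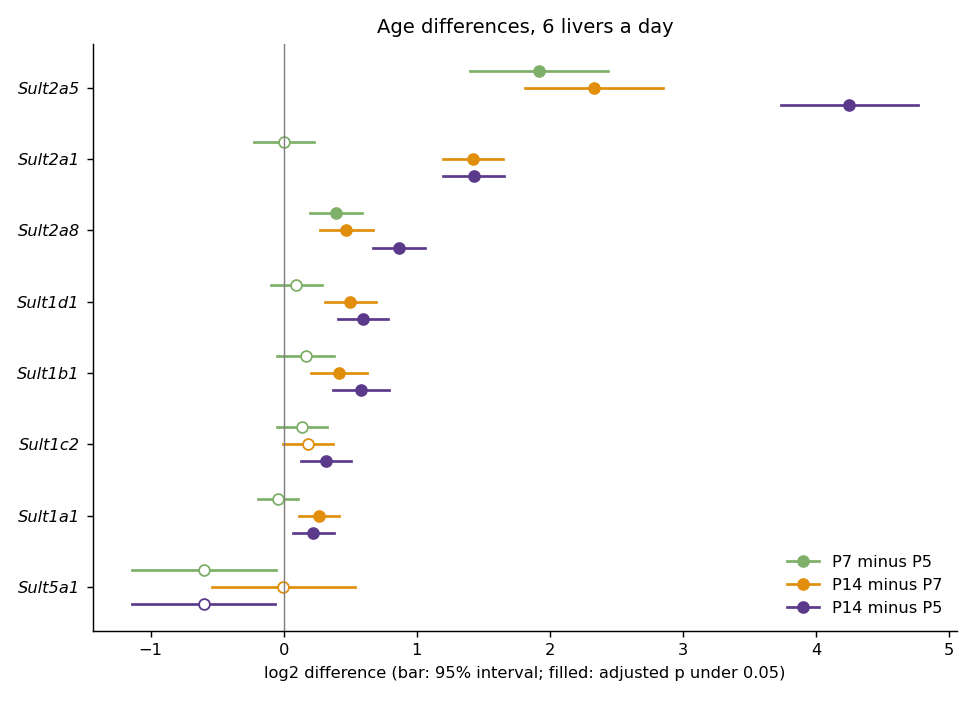
Log2 differences of 8 sulfotransferase genes (rows) for P7 minus P5, P14 minus P7 and P14 minus P5, each over 6 livers a day; bars are 95% intervals and filled points have a limma adjusted p under 0.05. Sult2a5 lies farthest right in each comparison, and Sult2a1 is at 0.00 for P7 minus P5 and 1.42 for P14 minus P7.

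By step, 2 of the 8 genes rose at P7 over P5, Sult2a5 and Sult2a8, where 26.9% of all genes tested passed and 13.7% passed as higher. Of the 8, Sult2a5 alone had all P7 livers above all P5 livers, as did 1.92% of all genes. At P14 over P7, 6 of the 8 rose, all but Sult1c2 and Sult5a1, where 50.3% of all genes passed and 24% passed as higher. The groups were apart for 5 of the 8, Sult2a1, Sult2a5, Sult2a8, Sult1b1 and Sult1d1, as for 10.9% of all genes.

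A trend with transcript length differed between days. Each library's values, relative to the gene means, had a rank correlation with transcript length of 0.05 to 0.49 at P7, against -0.35 to 0.20 at P5 and -0.24 to 0.02 at P14. With that correlation as a covariate the P7 over P5 log2 difference of Sult2a5 was 1.88 (adjusted p 0.198) and that of Sult2a8 0.38 (adjusted p 0.429), and 1 gene of all passed. In the same fit Sult1b1 and Sult1a1 were no longer past the threshold at P14 over P7, at 0.35 (adjusted p 0.0964) and 0.09 (adjusted p 0.473).

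Age was also read within each injection group. At P14 against P5, 5 of the 8 genes passed within mimic livers (33.4% of all genes) and 6 within scrambled livers (35.2%), all higher. At P14 over P7, 3 passed within mimic livers (29.5%) and 6 within scrambled livers (33.8%), again all higher. Within mimic livers 2 of the 8 passed at P7 over P5, Sult2a5 at 2.52 (limma adjusted p 0.00289) and Sult2a8 at 0.60 (adjusted p 0.0147), where 10% of all genes passed. Within the scrambled livers 0 passed of the 8 and of all genes (0%), with 3 of the 8 and 3265 of all genes at an unadjusted p under 0.05. There Sult2a5 was at 1.32 (adjusted p 0.0839) and Sult2a8 at 0.18 (adjusted p 0.399). The test of days given with the mimic results asks whether the mimic effect differed over the 3 days together. Whether a single age step differed between mimic and scrambled livers was not tested by itself. The results within each injection group share their livers with that test of days.

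At P7, 0 of the 8 genes passed between mimic and scrambled livers (limma, Benjamini-Hochberg), where 0.00709% of all genes did. That share is 1 gene, the skeletal muscle gene Ttn. The 2 of the 8 genes with an unadjusted p under 0.05, Sult2a5 and Sult2a8, were both higher in mimic livers, and 7.61% of all genes reached that level. All 3 mimic livers stood above all 3 scrambled livers for 4 of the 8 genes, Sult2a5, Sult2a8, Sult2a1 and Sult1d1, as they did for 6.52% of all genes tested. Log2 differences of the 8 genes ran from -0.35 in Sult5a1 to 1.30 in Sult2a5, with a median of 0.20, against -0.00 for all genes.

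Sult2a5 averaged 128 ± 10.7 scaled counts in mimic livers and 52.3 ± 12.1 in scrambled livers at P7 (SD, n = 3 each). Their log2 difference of 1.30 (SE 0.35, 95% interval 0.57 to 2.03) is a fold of 2.46, with an unadjusted p of 0.00147 and a limma adjusted p of 0.330. An exact permutation test gave a two-sided p of 0.1, the smallest that 3 against 3 livers allow. Fitted on the 6 P7 libraries alone, the same difference had an adjusted p of 0.0474 and passed. Over the fits that left out 1 library it ran from 1.17 to 1.47 and the adjusted p from 0.0912 to 0.818. Its share of Sult2a scaled counts was 9.09% ± 1.22 in mimic livers and 4.78% ± 1.05 in scrambled livers (SD, n = 3 each).

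Sult2a8 averaged 717 ± 75.1 scaled counts in mimic livers and 565 ± 36.9 in scrambled livers at P7 (SD, n = 3 each). Its mimic over scrambled difference was 0.34 on the log2 scale (95% interval 0.06 to 0.62, limma adjusted p 0.511). Sult2a1 was at 0.27 (95% interval -0.05 to 0.59) and Sult1d1 at 0.21 (95% interval -0.06 to 0.48). The lowest mimic liver had 250 scaled counts of Sult2a1 against 233 in the highest scrambled liver, and 762 of Sult1d1 against 736.

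Marker sums of other cell types also differed at P7. Skeletal muscle genes summed to 2 to 4 in mimic livers and 20 to 1452 in scrambled livers, with Ttn lower in mimic livers as the 1 muscle gene of 5 past the threshold. Sinusoidal endothelium genes summed to 3778 to 4189 in mimic livers and 4508 to 4851 in scrambled livers, with 0 of 6 genes past it. Hepatocyte genes overlapped, with sums of 14520 to 16516 in mimic livers and 13135 to 15320 in scrambled livers and 0 of 9 past it. With the Y-linked covariate the Sult2a5 difference was 1.25 (limma adjusted p 0.335), and scaled to hepatocyte genes it was 1.27 (limma adjusted p 0.635). Without P7 scrambled replicate 1, the library with the highest muscle sum, it was 1.25 (adjusted p 0.384), and without replicate 3, the next highest, 1.17 (adjusted p 0.818). The part of muscle or endothelial transcripts in these differences was not tested.

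The genes whose pattern over the 18 libraries was most like that of Sult2a5 were 9030617O03Rik (Pearson r 0.985), Cdhr5 (0.984) and Igf1 (0.979), out of 14103 genes ranked. Most like Sult2a8 were Ghr (0.967), Fzd8 (0.963) and Igf1 (0.963), and Sult2a5 and Sult2a8 had an r of 0.953 with each other. Igf1 encodes a growth factor that the liver makes in response to growth hormone, and Ghr encodes the growth hormone receptor. All points share the 3 ages and the 18 libraries, and these values are a description. At P7 Igf1 had 2514, 2606 and 2465 scaled counts in mimic livers and 1895, 1913 and 1761 in scrambled livers, 0.45 apart on the log2 scale (limma adjusted p 0.330). Ghr had 1466, 1542 and 1379 in mimic livers and 1197, 1237 and 1109 in scrambled livers, a difference of 0.31 (adjusted p 0.413). Both were chosen for likeness over libraries that include these 6, so their P7 values are no separate evidence.

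The nearest patterns for the remaining genes were Adh1 for Sult1a1 (Pearson r 0.974), Car8 for Sult1d1 (0.968) and Gm11844 for Sult1b1 (0.946). For Sult1c2 and Sult5a1 no gene came as close, with Zfp862-ps at 0.798 and Casz1 at 0.735.

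At P5, 0 of the 8 genes passed between mimic and scrambled livers by limma, where 0% of all genes did. The 2 genes at an unadjusted p under 0.05, Sult1c2 and Sult2a1, moved in opposite directions, and 1.89% of all genes reached that level. Sult1c2 averaged 321 ± 24.1 scaled counts in mimic livers and 229 ± 40.0 in scrambled livers (SD, n = 3 each), and it was the 1 gene of the 8 with all mimic livers above all scrambled livers, as in 2.89% of all genes. Its log2 difference was 0.50 (SE 0.13, 95% interval 0.23 to 0.76), with an unadjusted p of 0.00104, a limma adjusted p of 1 and an exact permutation p of 0.1, the smallest possible. Sult2a1 was at -0.38 (SE 0.15, 95% interval -0.71 to -0.06, adjusted p 1), with 213 ± 33.6 in mimic livers and 283 ± 76.9 in scrambled livers (SD, n = 3 each), which overlapped. Sult2a5 averaged 23.3 in both groups at P5.

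At P14, 0 of the 8 genes passed, where 0.0213% of all genes did, and 0 had an unadjusted p under 0.05, against 5.41% of all genes. Mimic and scrambled values were apart for 0 of the 8, against 9.31% of all genes in either direction. The smallest p belonged to Sult5a1, at -0.31 (95% interval -1.07 to 0.46), and to Sult1a1, at -0.05 (95% interval -0.27 to 0.16). Sult2a5 was at 0.06 with an interval from -0.67 to 0.79, which leaves out the 1.30 estimated at P7. The P7 interval, from 0.57 to 2.03, overlaps that of P14. The F test of whether the mimic effect differed between days did not pass for Sult2a5 (limma adjusted p 0.722). Sult2a8 was at 0.07 with an interval from -0.21 to 0.34, and its own P7 difference of 0.34 lay just within that interval.

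**Figure D5:**
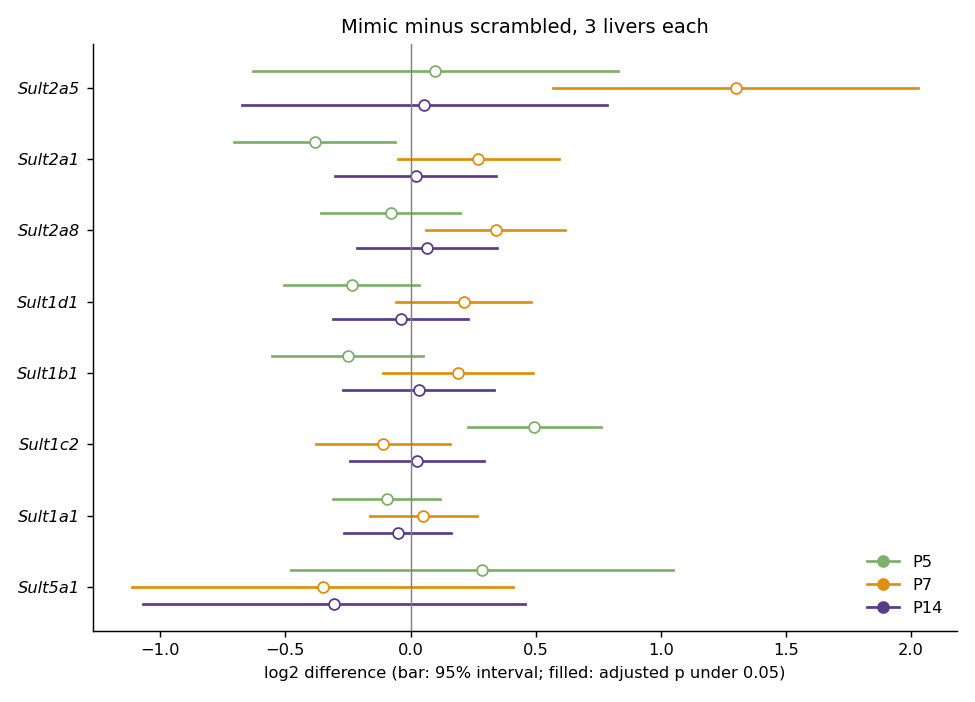
Log2 differences, mimic minus scrambled, of 8 sulfotransferase genes (rows) at P5, P7 and P14, 3 livers each; bars are 95% intervals, and open points have a limma adjusted p of 0.05 or more. The interval of Sult2a5 at P7 runs from 0.57 to 2.03, that of Sult1c2 at P5 from 0.23 to 0.76, and at P14 every interval crosses 0.

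Averaged over the 3 days, 0 of the 8 genes passed, where 0.00709% of all genes did. Sult2a5 was at 0.48 (SE 0.20, unadjusted p 0.0266, limma adjusted p 1.00) and Sult1c2 at 0.14 (adjusted p 1.00). A test of whether the mimic effect differed between days also passed for 0 of the 8 genes, against 0.00709% of all genes. Unadjusted p of this F test were 0.00871 for Sult1c2, 0.0237 for Sult2a1 and 0.0333 for Sult2a5, with limma adjusted p of 0.584, 0.670 and 0.722. A different effect at P5, P7 and P14 was therefore not shown for any of them.

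Genes around the sulfotransferases were read from lists of the same pathways, at P14 against P5. Of 14 tested genes of the sulfate donor and sulfur supply, 9 rose and 0 fell (limma adjusted p under 0.05), where 48.8% of all genes passed and 23.9% passed as higher, and the list had a median log2 difference of 0.33. Papss2, a PAPS synthase, was higher by 0.72 (SE 0.08, adjusted p 5.70e-07), and its partner Papss1 was at 0.10 (adjusted p 0.234). Suox, which oxidizes sulfite to sulfate, was higher by 0.76 (adjusted p 5.34e-07) and Got1, a transaminase on the way from cysteine to sulfite, by 0.73 (adjusted p 4.68e-07). Bpnt1, which clears the nucleotide left by the reaction, was higher by 0.39 (adjusted p 2.32e-05).

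Papss2 had 1111, 1329 and 1313 scaled counts in mimic and 1475, 1471 and 1294 in scrambled livers at P14, against 762, 831 and 719 in mimic and 904, 939 and 709 in scrambled livers at P5. All P14 livers stood above all P5 livers.

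Of 19 tested Golgi sulfotransferases 5 rose and 6 fell, with a median of 0.04, and this share is near the 48.8% of all genes that passed. Chst11, which sulfonates chondroitin, had 15, 19 and 8 scaled counts in mimic and 10, 15 and 17 in scrambled livers at P14, against 101, 94 and 111 in mimic and 131, 119 and 100 in scrambled livers at P5. The difference was -2.92 (SE 0.20, limma adjusted p 9.07e-10). Chst12, with the same kind of substrate, was at -1.15 (adjusted p 6.26e-06), while Hs2st1 of heparan sulfate was higher by 0.31 (adjusted p 0.000415) and Tpst1, a tyrosylprotein sulfotransferase, by 0.29 (adjusted p 0.00195). Of 12 sulfatase genes, which include the enzymes that remove sulfate, 4 rose and 2 fell, with a median of 0.10, again near the 48.8% of all genes. Sulf1 was higher by 1.78 (adjusted p 0.00264), Sulf2 by 0.64 (adjusted p 0.000678) and Ids by 0.47 (adjusted p 0.000947), and Galns was at -0.83 (adjusted p 1.32e-05).

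Of 19 receptors and regulators known to act on rodent sulfotransferase genes, 18 rose and 0 fell, where 23.9% of all genes passed as higher, with a median of 0.45. Esr1, the estrogen receptor, was higher by 1.20 (SE 0.15, limma adjusted p 1.51e-06), Nr0b2, a corepressor in bile acid signalling, by 0.87 (adjusted p 2.68e-05), and Stat5b, which carries the growth hormone signal, by 0.64 (adjusted p 4.71e-06). The exception was Nfe2l2, at -0.09 (adjusted p 0.168). Of 12 aldo-keto and hydroxysteroid genes with like substrates, 7 rose and 0 fell, where 48.8% of all genes passed and 23.9% passed as higher, with a median of 0.32, among them Hsd3b2 by 1.10 (adjusted p 3.91e-06), Cyp7b1 by 0.82 (adjusted p 0.000772), Akr1d1 by 0.56 (adjusted p 1.37e-05) and Hsd3b3 by 0.33 (adjusted p 0.000250). In the mimic comparisons 0 genes of these 5 lists passed at any day.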

How the data were processed

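Stranded mRNA libraries of liver were sequenced, per the labels' protocols. The authors deposited scores in whole numbers, judged from the values to be counts of reads per gene put on a common scale and rounded. They are called scaled counts here; the depth in raw reads is unknown. Per the submitters' processing notes, DESeq2 1.26.0, featureCounts 1.6.5, Picard 2.21.7, STAR 2.6.1d and Trimmomatic 0.39 were used with mm10 (GRCm38), in an order and with settings that are not given. Groups came from the sample titles. R 4.3.3 with limma 3.58.1 (and version 1.17.8 of data.table) fitted log2(value + 1) of genes averaging at least 10, with a mean for each group, a trend of spread on level, 12 degrees of freedom from the residuals, 6.49 from the prior, and Benjamini-Hochberg adjustment over 14104 genes. This scale understates changes of low genes. Because the labels name no litters, p-values measure the spread between these livers. Transcript lengths, 3′ UTRs and shared 50-base stretches came from GENCODE M21, and sequences from RefSeq. The script was tested on simulated data. The genes and lists were chosen with earlier results of these data known. Every gene of the set was given in every library, with age differences for all tested genes and mimic differences for those with an unadjusted p under 0.05 or, where fewer than 2 had one, the 2 of smallest p. Of each list, the 4 genes of smallest p past the threshold were named, except 1 that is not reported here; likeness was read by Pearson r of log2(value + 1), and Papss1, Nfe2l2, Zbed4-ps1, the P7 values of Sult2a1, Sult1d1, Igf1 and Ghr and the P14 values of Sult2a5 and Sult2a8 were added after their values were seen. Alternatives were other pseudocounts, filters, scalings, covariates, a replicate block, subsets of the libraries, and each of the libraries omitted in turn. Other steps used matplotlib 3.10.9, pandas 2.3.3, numpy 2.4.6 and scipy 1.17.1 in Python 3.11.15.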

Additional observations from a re-analysis of the deposited data

How the results depend on the processing

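The count of sulfotransferase genes past the threshold at P7 over P5, 2 as reported, was 1 with the red cell covariate and 0 with the transcript length covariate or in scrambled livers only. At P14 over P7, 6 became 0 with the red cell covariate and 3 in mimic livers only. With that covariate the step was 1.80 for Sult2a1, 1.81 for Sult2a5, 0.50 for Sult1a1, 0.41 for Sult1d1, 0.18 for Sult1b1 and 0.10 for Sult2a8. At P14 against P5, 7 became 0 with it, with differences from 0.27 in Sult1c2 to 3.63 in Sult2a5. For mimic against scrambled at P7, 0 became 1 with only the libraries compared. With 1 library left out they ran from 2 to 3 at P7 over P5, from 6 to 7 at P14 over P7 and from 7 to 8 at P14 against P5, and were 0 in each mimic comparison.

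Over all genes, the count at P7 over P5 was 3798, and 1039 with hepatocyte scaling, 433 with the red cell covariate, 1 with the length covariate, 1483 without P7 scrambled replicates 2 and 3 (which leaves 1 P7 scrambled library, the one of highest muscle sum, assumed to vary like the other groups), 1416 in mimic livers only and 0 in scrambled livers only. At P14 over P7 it was 7100, and 40 with the red cell covariate, 3303 with the length covariate, 4657 without those 2 libraries and 4163 in mimic livers only. At P14 against P5 it was 6878 and became 24 with the red cell covariate. Hepatocyte scaling moved the all-gene median by -0.14 at P14 over P7, with 1141 higher and 4035 lower calls against 3391 and 3709. It gave 1847 higher and 3337 lower calls at P14 against P5, against 3377 and 3501, and 721 and 318 at P7 over P5, against 1931 and 1867.

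For mimic against scrambled, counts over all genes at P7 were 1 as reported, 3 unfiltered or with the replicate block, 4 with quantile normalization, 10 with only the libraries compared, 19 (1 higher, 18 lower) with P7 scrambled replicate 1 as the only scrambled library, and 0 with a mean of 50 or more, no trend or the length covariate. At P14 they were 3, then 5 with a pseudocount of 5, 11 with TMM, 7 with the replicate block or the Y-linked covariate, and 1 with the red cell covariate. Averaged over days the 1 became 0 with hepatocyte scaling, no trend or the red cell covariate and 10 without the 2 libraries, and the F test's 1 became 0 with the red cell covariate and 11 without them. Leaving out 1 library gave 0 to 1 at P5, 0 to 14 at P7, 3 to 16 at P14, 0 to 4 averaged, 1 to 7 in the F test and 1988 to 5073 at P7 over P5. Leaving out P7 scrambled replicate 1 gave 14 at P7, replicate 2 of that group gave 9, and replicate 3 or any P7 mimic library gave 0. At P14, omitting scrambled replicate 3 gave 16, scrambled replicate 2 gave 15 and mimic replicate 3 gave 8. P7 over P5 had 1988 without P7 mimic replicate 1, 2161 without P5 mimic replicate 3, 2377 without P7 scrambled replicate 2 and 2528 without P5 mimic replicate 1.

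Signs turned only in differences that were small as reported, from -0.05 to 0.17. Some of the P7 over P5 ones average steps of opposite sign within the injection groups. Sult2a1 was at 0.33 in mimic and -0.32 in scrambled livers, and Sult1c2 at -0.16 and 0.44. Sult1b1 was at 0.39 in mimic and -0.05 in scrambled livers, and Sult1d1 at 0.32 and -0.13. Sult5a1 at P14 over P7 was 0.0179 with TMM, 0.0209 in mimic livers only, 0.17 with quantile normalization, 0.0516 with the Y-linked, 0.35 with the red cell and 0.30 with the length covariate, 0.34 without P7 scrambled replicates 2 and 3, and -0.17 to 0.19 with 1 library left out. Sult1a1 at P7 over P5 was 0.0405 with hepatocyte scaling, 0.16 with the length covariate, 0.0297 in mimic livers only and -0.0874 to 0.0204 with 1 library left out, and in the P14 mimic comparison 0.00276 with quantile normalization and 0.00578 with hepatocyte scaling. At P7 over P5, Sult1c2 was -0.0496 with the length covariate and -0.16 in mimic livers only, Sult2a1 -0.0463 without the 2 libraries, -0.32 in scrambled livers only and -0.11 to 0.0919 with 1 left out, and in scrambled livers only Sult1b1 was -0.0549 and Sult1d1 -0.13. The cause was not tested in any of these.

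No pairing of livers by replicate number was seen: of 9 same-number pairs 2 had a correlation over 0.1, with a range of -0.23 to 0.24. Pairs of different number ran from -0.30 to 0.39. With 3 livers a group, this check cannot show whether livers shared a litter or batch. With the replicate block Sult2a5 at P7 was 1.30 (limma adjusted p 0.157), and no gene of the set changed its call.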
